A study of Mus musculus with 4 samples.

Results

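The phosphatidylinositol 3-kinase-related kinases (PIKKs) are a small family of very large proteins, and their 6 genes in the mouse, Mtor, Trrap, Atm, Atr, Prkdc and Smg1, were examined for 2 histone marks in embryonic stem (ES) cells. The genes were chosen by name, as members of this family, from 22367 annotated protein-coding genes, and every listed region inside them or within 5 kb was taken. That gave 88 of the 31593 H3K36me3 regions and 10 of the 32502 H3K9me3 regions.

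Chromatin immunoprecipitation followed by sequencing was performed for H3K9me3 and H3K36me3, the trimethylated lysines 9 and 36 of histone H3, in mouse ES cells of strain 129S1/SvImJ kept below passage 20, in medium with serum and leukemia inhibitory factor. The WT cells were unmutated, and the targeted H3.3 G34R cells carried a glycine to arginine change of the histone variant H3.3 on 1 allele of H3f3a, expressed from that gene's own promoter, with the second H3.3 gene, H3f3b, left WT. There were 4 libraries in 4 groups, 1 library for each mark in each cell type, so no value below has a replicate error. Each deposited list joined the WT and the G34R library of 1 mark and held positions only, so the comparison of WT with G34R cells was not analysed here and the depth is unknown.

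Most PIKKs phosphorylate proteins on serine or threonine. mTOR couples nutrients and growth factors to cell growth, ATM, ATR and DNA-PKcs (the product of Prkdc) act in the response to DNA damage, and SMG1 phosphorylates UPF1 in nonsense-mediated mRNA decay. TRRAP is the exception, a member without kinase activity that serves as a scaffold of histone acetyltransferase complexes. H3K36me3 is laid down over the bodies of transcribed genes by SETD2, which travels with elongating RNA polymerase II, and typically builds up towards the 3′ end. H3K9me3 marks heterochromatin and silenced repeats, and is also found over some transcribed genes, such as zinc finger gene clusters.

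The genes span 91.7 kb (Trrap) to 204 kb (Prkdc) of the NCBIM37 (mm9) assembly. Trrap (ENSMUSG00000045482.9) lies at chr5:145528961-145620647 on the plus strand with 71 coding exons, and Mtor (ENSMUSG00000028991.9) at chr4:147822720-147931792 on the plus strand with 57. Smg1 (ENSMUSG00000030655.7) lies at chr7:125274832-125387151 on the minus strand with 63 coding exons, and Atm (ENSMUSG00000034218.8) at chr9:53247254-53344845 on the minus strand, also with 63. Prkdc (ENSMUSG00000022672.7) lies at chr16:15637959-15842332 and Atr (ENSMUSG00000032409.7) at chr9:95758016-95852063, both on the plus strand, with 86 and 47 coding exons. G+C content set Trrap (49.2%) and Mtor (48.0%) apart from the other members, which ranged from 36.3% in Atr to 39.9% in Prkdc.

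The exon that encodes the kinase catalytic loop was marked in some of the genes and not in others. A search of each main coding sequence for 7 codons that read glycine, aspartate, arginine, histidine, any, any, asparagine found 1 match in each of 5 genes. The 21 bases are shown because they are a landmark found in 5 of the 6 genes. Capitals mark the codons of the aspartate and the asparagine.
Mtor: ggaGACaggcacccatccAAT
Smg1: ggaGACagacatctggatAAT
Atm: ggcGACaggcacgtacagAAT
Atr: ggaGACcgtcatggtgaaAAC
Prkdc: ggaGACagacacctgaacAAT
In Trrap no match was found, and no more is read from that. The loop lay 91.7% to 94.99% of the way along the coding sequence in Mtor, Atm, Atr and Prkdc and 63.8% along in Smg1, whose protein continues far beyond its kinase domain. In Smg1 (exon 43, chr7:125300633-125300653) all 21 bases fell in an H3K36me3 region. In Mtor the loop is split by an intron, with 8 bases at chr4:147921788-147921795 in exon 50, which was not covered, and 13 at chr4:147923477-147923489 in exon 51, which was covered over all of its 73 bp. In Atm (exon 60, chr9:53252143-53252163), Atr (exon 44, chr9:95845833-95845853) and Prkdc (exon 83, chr16:15836234-15836254) none of the 21 bases was in a region of either list. The nearest H3K36me3 region was 3.34 kb from the loop in Atm and 167 kb from it in Prkdc. Among all coding exons, H3K36me3 touched 48 of 57 in Mtor, 31 of 63 in Smg1, 2 of 63 in Atm, 1 of 86 in Prkdc and 0 of 47 in Atr. The loop exons followed these gene-wide shares, so nothing particular to the loop is read from them.

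H3K36me3 regions covered very unequal shares of the 6 genes. Trrap led with 76.8% of its length (95% Wilson interval over 200 bp bins 72.4% to 80.2%), followed by Mtor with 40.9% (36.8% to 45.0%) and Smg1 with 16.7% (13.9% to 20.0%). Atm had 3.28% (2.02% to 5.25%), Prkdc 1.37% (0.817% to 2.28%), and Atr no region at all. Neighbours in this order had separate intervals down to Atm, while those of Atm and Prkdc overlapped. The intervals cover counting error only, and since neighbouring bins are joined into regions they are too narrow. A gene or exon outside the lists may still carry the mark below the percentile that admitted a bin, or in stretches narrower than the narrowest listed region, 600 bp.

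**Figure D1:**
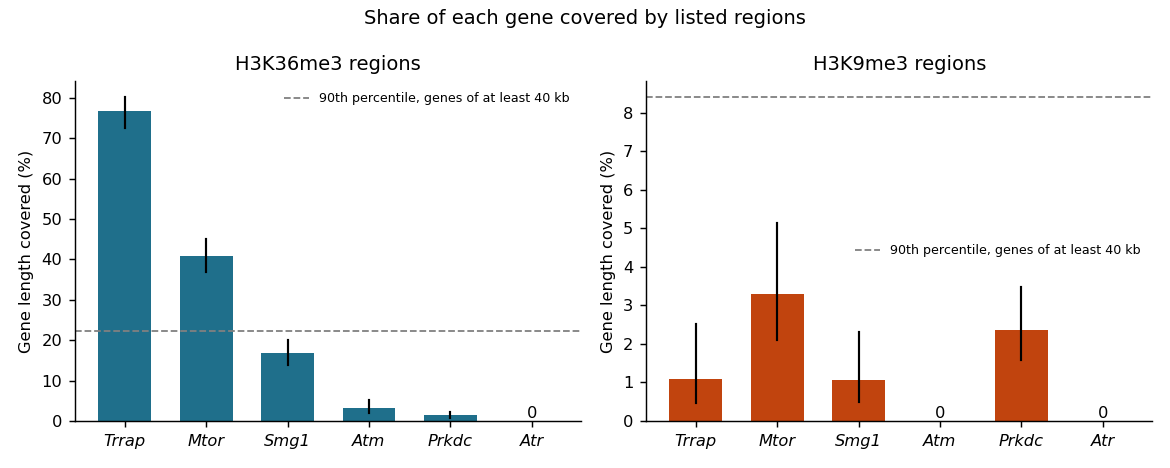
Share of the length of each gene (%) covered by H3K36me3 regions (left) and by H3K9me3 regions (right), with 95% Wilson intervals over 200 bp bins as black lines and the 90th percentile of 5909 protein-coding genes of at least 40 kb as dashed lines. Trrap (76.8%) and Mtor (40.9%) stood above the 22.3% line for H3K36me3, and no member reached the 8.41% line for H3K9me3.

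An H3K36me3 region was present in 5 of the 6 genes, against 34% of all protein-coding genes and 38.2% of the 5909 protein-coding genes of at least 40 kb. Among those long genes, 37 had a larger share than Trrap, 281 a larger share than Mtor and 738 a larger share than Smg1, while 1497 exceeded Atm and 1848 exceeded Prkdc. The family as a whole had 83 H3K36me3 regions inside its genes, which covered 139.8 of 709.094 kb or 19.7%, against 3.20% of the summed length of the long genes. Trrap and Mtor supplied 82.3% of those covered bases. Without Trrap the share fell to 11.2%, and without Prkdc, the longest member, it was 27.1%, so the pooled share depends on which genes are counted.

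H3K9me3 regions were few, 10 in all, and 9 of them were 600 to 1200 bp wide, the exception being one of 4.2 kb in Prkdc. They covered 3.30% of Mtor (interval 2.10% to 5.15%, 5 regions), 2.35% of Prkdc (1.58% to 3.47%, 2 regions), 1.09% of Trrap (0.465% to 2.52%, 1 region) and 1.07% of Smg1 (0.490% to 2.31%, 2 regions). Atm and Atr had none, and the intervals of the 4 marked genes overlapped. The mark was thus listed in 4 of 6 members, against 40.2% of all protein-coding genes and 69.8% of those of at least 40 kb. In total the 10 regions covered 10.6 kb or 1.49% of the family, against 2.95% of the long genes. Regions of at least 1 kb alone covered 0.903% of the family.

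Atr, the kinase that answers single-stranded DNA at stalled replication forks, was the member without a region of either list across its 94.0 kb. Of its 471 bins of 200 bp, 455 had a central 50 bases that occur once in the assembly, and none of these was in a region of either list. The gene 3.115 kb downstream of it, Xrn1, which encodes a cytoplasmic exoribonuclease, was itself covered over 1.83% by H3K36me3.

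**Figure D2:**
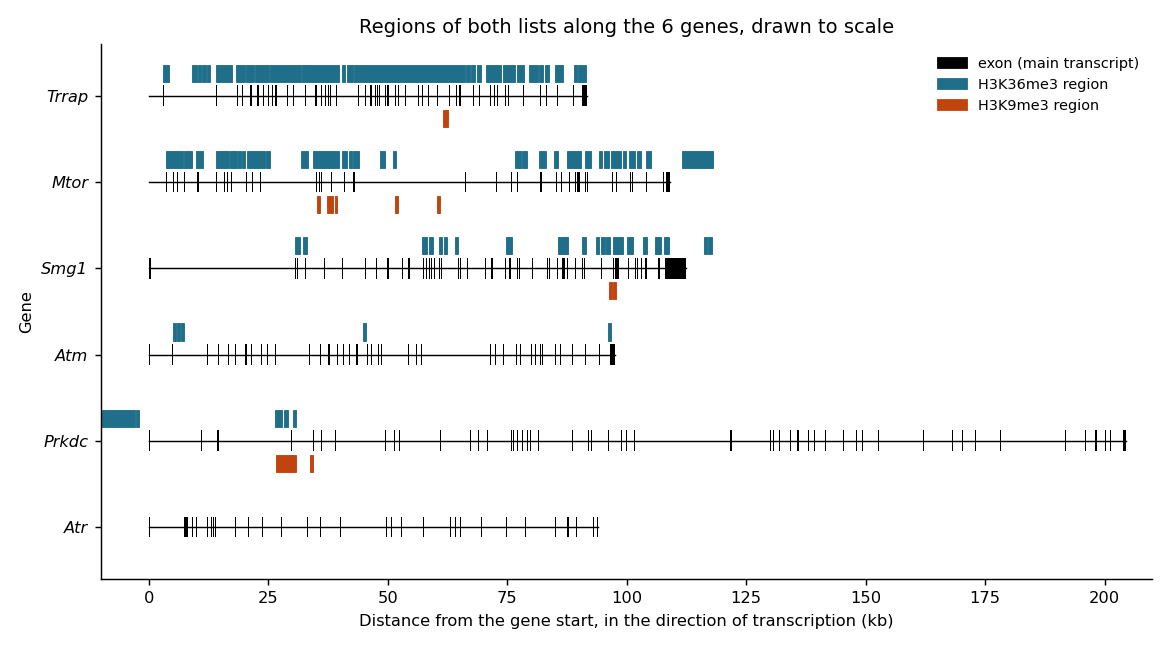
Maps of the 6 genes, to scale, by distance from the gene start in kb. Black ticks are exons of the main transcript, blue boxes above each line H3K36me3 regions and orange boxes below it H3K9me3 regions, including those within 5 kb of the gene. Trrap had H3K36me3 boxes over 76.8% of its length, Mtor had a 25 kb gap in its middle, and Atr carried no box.

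Along Trrap, the scaffold of the TIP60 and SAGA acetyltransferase complexes, H3K36me3 began 3.04 kb after the gene start and ended 0.247 kb before its end. The main transcript of Trrap itself starts at position 145531958, so the H3K36me3 region that begins at 145532001 lies at that start. Its 27 regions included one of 23.4 kb, chr5:145571801-145595200, that ran without a break over exons 32 to 55. Other wide regions measured 6.4 kb over exons 18 to 21 and 6.0 kb over exons 23 to 30. With the gene cut into 10 equal parts from start to end, the share was 14.5% in part 1, 71.6% in part 2, 93.5% and 95.6% in parts 3 and 4, 86.9% in part 5, 100% in parts 6 and 7, then 78.2%, 75.2% and 52.4%. Coverage was therefore highest in the middle of the gene and lower at both ends. Part 1 includes 2.997 kb before the main transcript start, where no region was listed, which lowers its share. The largest uncovered stretch, 4.8 kb, lay 4.24 to 9.04 kb from the start.

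Mtor, the catalytic subunit of mTORC1 and mTORC2, was marked in 2 blocks. H3K36me3 covered 57.1%, 65.2%, 37.7%, 79.8% and 20.6% of parts 1 to 5, none of parts 6 and 7, and 40.3%, 66.8% and 41.4% of parts 8 to 10. The widest of its 29 regions, 5.6 kb at chr4:147857001-147862600, spanned exons 21 to 25. Between 51.7 and 76.7 kb from the start no H3K36me3 region was listed. That 25 kb gap took in exons 29 to 32 and part of intron 28, which at 20.0 kb is the longest intron of the gene and was covered over 13.6%. Intron 28 also holds Angptl7, a secreted angiopoietin-like protein gene on the opposite strand, of which 34.1% was in H3K36me3 and 6.99% in H3K9me3 regions. Marks of the body of Mtor and of Angptl7 cannot be told apart there.

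In Smg1, H3K36me3 was concentrated in the later part of the gene. Parts 1 and 2, which hold exon 1 and much of the 30.2 kb intron 1, had no covered base, nor had parts 4 and 5. The others had 17.8% (part 3), 33.8% (part 6), 10.7% (part 7), 17.8% (part 8), 56.4% (part 9) and 30.8% (part 10). All 19 regions were at most 2 kb wide, the widest at chr7:125288001-125290000 over exons 52 to 54. A stretch of 24 kb, from 33.2 to 57.2 kb after the start, was free of the mark.

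Atm, the kinase activated by DNA double-strand breaks, had 5 H3K36me3 regions of 600 to 800 bp. Of these, 3 formed a cluster 5.05 to 7.44 kb after the start (chr9:53337401-53339800) over exon 4 and intron 4, 1 lay in intron 27 and 1 at exon 63 near the end. The divergent neighbour 306 bp from the Atm start, Npat, a regulator of histone gene transcription, had 28.4% of its length in H3K36me3 regions, none within 5 kb of Atm.

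Prkdc encodes DNA-PKcs, the kinase that Ku recruits to broken DNA ends. Its 3 H3K36me3 regions and both H3K9me3 regions lay in 1 stretch, 26.4 to 34.4 kb from the start. All of them fell in part 2 of 10, of which 13.7% was in H3K36me3 and 23.5% in H3K9me3 regions, and the other parts carried neither. Mcm4, a subunit of the replicative helicase that is transcribed away from Prkdc, starts 465 bp from it and had 86.0% of its length in H3K36me3 regions. The 2 H3K36me3 regions within 5 kb of Prkdc both lay in Mcm4. Prkdc also had the smallest share of bins with a unique centre, 87.4%, against 94.8% to 97.8% in the other members. Within its 894 unique bins 13 were covered by H3K36me3 and 23 by H3K9me3. Over the unique bins of all 6 genes the shares were 20.7% for H3K36me3 and 1.56% for H3K9me3.

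**Figure D3:**
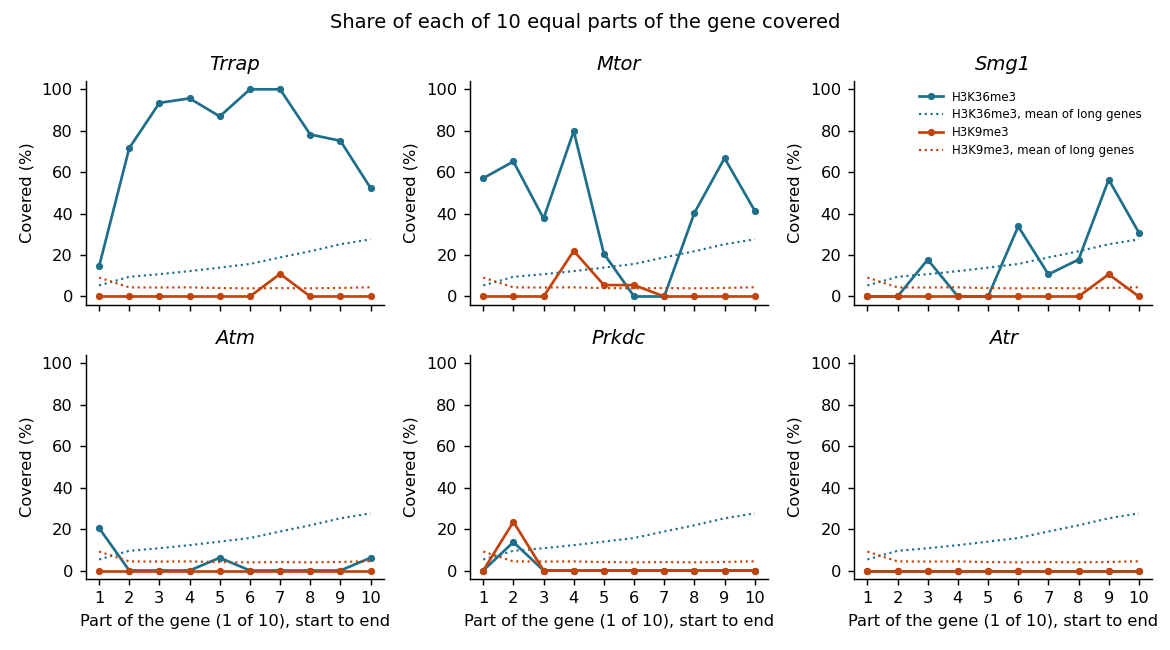
Share of each of 10 equal parts of the gene covered (%), from start to end, by H3K36me3 (blue) and H3K9me3 (orange) regions. Dotted lines are means over other protein-coding genes of at least 40 kb with a region of the mark (2251 for H3K36me3, 4123 for H3K9me3), which rose from 5.32% to 27.6% for H3K36me3. Trrap lay above that line in all 10 parts and Mtor in 8, and Prkdc showed both marks in part 2 only.

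The members did not share 1 direction along the gene. In 2251 other long genes with the mark, mean H3K36me3 coverage rose from 5.32% in part 1 to 27.6% in part 10. The later 5 parts were therefore compared with the earlier 5 in each member. Smg1 moved the same way, with 29.9% of its later parts covered against 3.56% of its earlier ones, a difference of 26.4 percentage points. Trrap differed by 8.71 points (81.1% against 72.4%). Its earlier parts include the uncovered 2.997 kb before the main transcript start, which widens this difference. Mtor went the other way with 29.7% of the later parts against 52.1% of the earlier ones, a difference of -22.4 points, and so did Atm (-4.10) and Prkdc (-2.74). Over the family 19.97% of the later and 19.5% of the earlier parts were covered, a difference of 0.51 points with an interval of -2.11 to 3.12 that includes 0. Its sign was not stable: it was -0.34 within main transcript limits, -0.71 without Trrap and -4.36 without Smg1, and 5.68 over exonic bases. For H3K9me3 the later parts had 0.79% and the earlier ones 2.2%, a difference of -1.41 points (interval -2.26 to -0.62), which was -0.079 without Prkdc. The intervals of both differences count neighbouring bins as independent, so they are too narrow and do not cover the spread between genes. The marked members were split, with -4.40 points in Mtor and -4.70 in Prkdc against 2.18 in Trrap and 2.14 in Smg1.

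H3K9me3 was not listed in part 1 of any member, although 55.1% of the 4123 other long genes with this mark had it there. The region nearest to a gene start was 26.6 kb into Prkdc, followed by 35.3 kb into Mtor, 61.6 kb into Trrap and 96.4 kb into Smg1.

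Exons carried more H3K36me3 than introns in the 3 best covered genes. H3K36me3 touched 69 of the 71 coding exons of Trrap, 48 of 57 in Mtor and 31 of 63 in Smg1, and covered 66, 47 and 26 of them in full. In Trrap the coding exons left out were 6 and 69, and in Mtor they were 15, 29 to 32, 38, 50, 57 and 58. In Atm 2 of 63 coding exons were touched, in Prkdc 1 of 86 and in Atr 0 of 47, so that the family had 151 of 387, of which 139 were covered in full. In base pairs, 96.4% of the coding sequence of Trrap was covered, 88.7% in Mtor, 45.7% in Smg1, 1.49% in Atm and 0.525% in Prkdc.

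**Figure D4:**
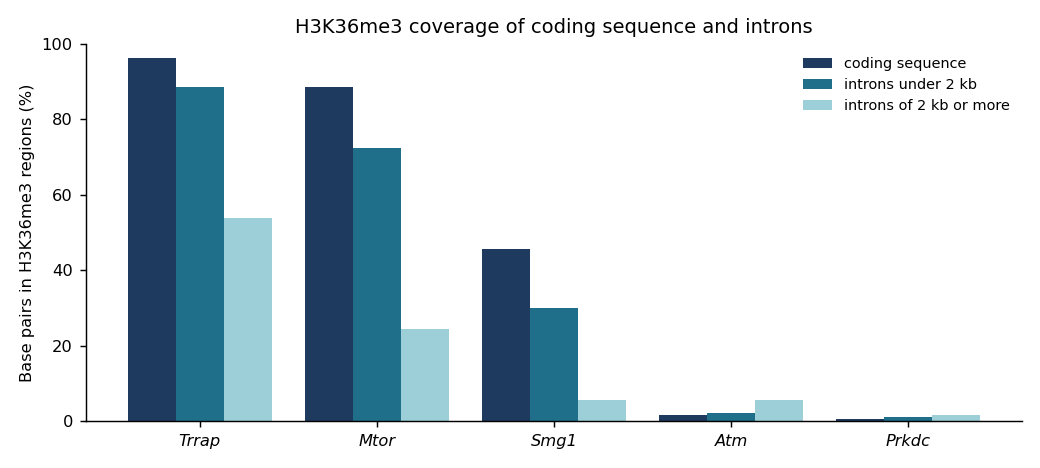
Share of base pairs in H3K36me3 regions (%) for the coding sequence, introns under 2 kb and introns of 2 kb or more in the 5 genes with a region. Coding sequence was covered more than either class of introns in Trrap (96.4%), Mtor (88.7%) and Smg1 (45.7%), but not in Atm or Prkdc.

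Short introns were covered more than long ones in the same 3 genes. Exonic and intronic coverage was 94.3% and 73.8% in Trrap, 79.2% and 36.8% in Mtor and 37.8% and 13.4% in Smg1. Introns under 2 kb were covered over 88.6%, 72.3% and 30.0% in these 3 genes, and introns of 2 kb or more over 53.9%, 24.4% and 5.58%. Atm and Prkdc, both sparsely covered, showed the reverse, with 1.37% of exonic and 3.51% of intronic bases covered in Atm and 0.513% and 1.43% in Prkdc. Across the family the exonic share was 36.5% and the intronic share 17.5%, a ratio of 2.09. In the other protein-coding genes of at least 40 kb the shares were 13.97% and 2.76%, both lower than in the family, with a ratio of 5.07. As no region was narrower than 600 bp and most exons are shorter than that, a region that holds an exon also takes in intron beside it. Covered bases had a higher G+C content than the other bases of the gene in 4 of 5 genes, with 50.0% against 46.3% in Trrap, 50.0% against 46.7% in Mtor, 40.7% against 38.8% in Smg1 and 41.2% against 38.9% in Atm. In Prkdc it was 39.6% against 39.9%. The part of base composition in the result was not tested.

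H3K9me3 touched 7 of the 387 coding exons, namely 22, 24 and 25 of Mtor, 13 and 16 of Prkdc, and 52 and 53 of Smg1. With regions of at least 1 kb only, 3 coding exons were touched. The pooled exonic share of H3K9me3, 1.36%, was close to the intronic share, 1.52%, with a ratio of 0.893, against 6.02% and 2.82% in the other long genes, with a ratio of 2.13. The members differed in direction, with 4.12% of exonic and 3.28% of intronic bases in Mtor, 2.19% and 0.888% in Smg1, 1.74% and 2.39% in Prkdc, and 0% and 1.31% in Trrap.

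Most of the H3K9me3 bases listed in these genes were also in H3K36me3 regions. The same base pairs were in both lists over 2.6 kb of Mtor, 2.6 kb of Prkdc, 1.0 kb of Trrap and 0.8 kb of Smg1. These 7000 bp made up 66.0% of the H3K9me3 and 5.01% of the H3K36me3 bases of the family, against 9.34% and 6.01% of the whole lists. With regions of at least 1 kb only, 3400 bp were shared, and 14600 bp of H3K36me3 lay within 1 kb of an H3K9me3 region. Regions of both lists were present in 4 members, against 12.1% of all protein-coding genes and 22.8% of those of at least 40 kb. Shared bases were also present in 4, against 7.14% and 13.4%. Among the 1342 other long genes with regions of both lists, 58.6% had shared bases. In the 1342 other long genes with both lists the pooled share of H3K9me3 bases also in H3K36me3 regions was 22.5%, and it was above 50% in 24.6% of them, as it was in all 4 members. H3K36me3 covered 26.4% of those 4 members and 8.94% of the other 1342 genes, and the part of this difference in the overlap was not tested.

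The longest shared stretch of each gene is shown by its central 300 bases, since these bases are in both lists. As each list joins WT and G34R cells, a shared base may be enriched for H3K36me3 in one cell type and for H3K9me3 in the other. Each is written 5′ to 3′ in the direction of the gene, with exon bases in capitals.
Prkdc: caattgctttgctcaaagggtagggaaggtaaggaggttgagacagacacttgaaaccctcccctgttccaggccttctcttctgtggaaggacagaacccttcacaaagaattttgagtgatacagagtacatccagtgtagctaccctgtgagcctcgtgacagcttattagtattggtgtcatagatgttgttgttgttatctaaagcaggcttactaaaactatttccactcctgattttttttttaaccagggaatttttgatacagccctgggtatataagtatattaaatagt
Mtor: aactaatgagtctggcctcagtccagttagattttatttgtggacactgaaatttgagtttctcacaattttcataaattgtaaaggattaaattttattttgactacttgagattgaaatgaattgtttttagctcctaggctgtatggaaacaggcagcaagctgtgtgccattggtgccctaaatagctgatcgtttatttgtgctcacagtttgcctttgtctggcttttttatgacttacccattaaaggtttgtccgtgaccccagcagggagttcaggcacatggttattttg
Trrap: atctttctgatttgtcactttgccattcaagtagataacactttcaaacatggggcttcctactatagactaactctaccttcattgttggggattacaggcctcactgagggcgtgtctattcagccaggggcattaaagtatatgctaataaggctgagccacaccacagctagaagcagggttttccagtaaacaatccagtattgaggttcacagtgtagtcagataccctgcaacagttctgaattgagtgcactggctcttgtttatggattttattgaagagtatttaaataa
Smg1: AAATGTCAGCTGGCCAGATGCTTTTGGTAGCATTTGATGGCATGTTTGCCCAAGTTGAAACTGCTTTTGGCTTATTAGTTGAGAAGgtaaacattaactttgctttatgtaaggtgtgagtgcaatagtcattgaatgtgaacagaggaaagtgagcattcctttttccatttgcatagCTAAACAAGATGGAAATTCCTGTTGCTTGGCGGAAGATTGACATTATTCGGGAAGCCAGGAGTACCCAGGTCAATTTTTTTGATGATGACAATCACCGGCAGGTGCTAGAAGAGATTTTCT
The Prkdc sequence (chr16:15665051-15665350) is from intron 12 and has 40.7% G+C with 1 CpG, the Mtor sequence (chr4:147860451-147860750) is from intron 24 with 38.3% and 2, and the Trrap sequence (chr5:145590951-145591250) is from intron 50 with 41.0% and 1. The Smg1 sequence (chr7:125289551-125289850, minus strand) holds 207 exon bases of exons 52 and 53 on either side of intron 52, with 40.3% G+C and 3 CpG. All bins under these 4 sequences had a central 50 bases that occur once in the assembly.

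In Prkdc the H3K9me3 region chr16:15664601-15668800, 4.2 kb wide and reaching from intron 12 over exon 13 into intron 13, held 3 separate shared pieces of 1200, 800 and 600 bp. They made up 92.9% of all H3K36me3 bases of the gene and 54.2% of its H3K9me3 bases. In Mtor, 3 H3K9me3 regions of 600, 1200 and 600 bp lay wholly inside the widest H3K36me3 region, around exons 22 to 25. Of the other 2, the one over the start of Angptl7 in intron 28 shared 200 bp, and the one at 60.3 kb, also in intron 28, fell in the H3K36me3 gap. In Trrap the only H3K9me3 region, chr5:145590601-145591600, lay wholly in intron 50 within the 23.4 kb H3K36me3 region. In Smg1 the region over exons 52 and 53 was shared over all its 600 bp, and its neighbour in intron 51 over 200 bp.

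**Figure D5:**
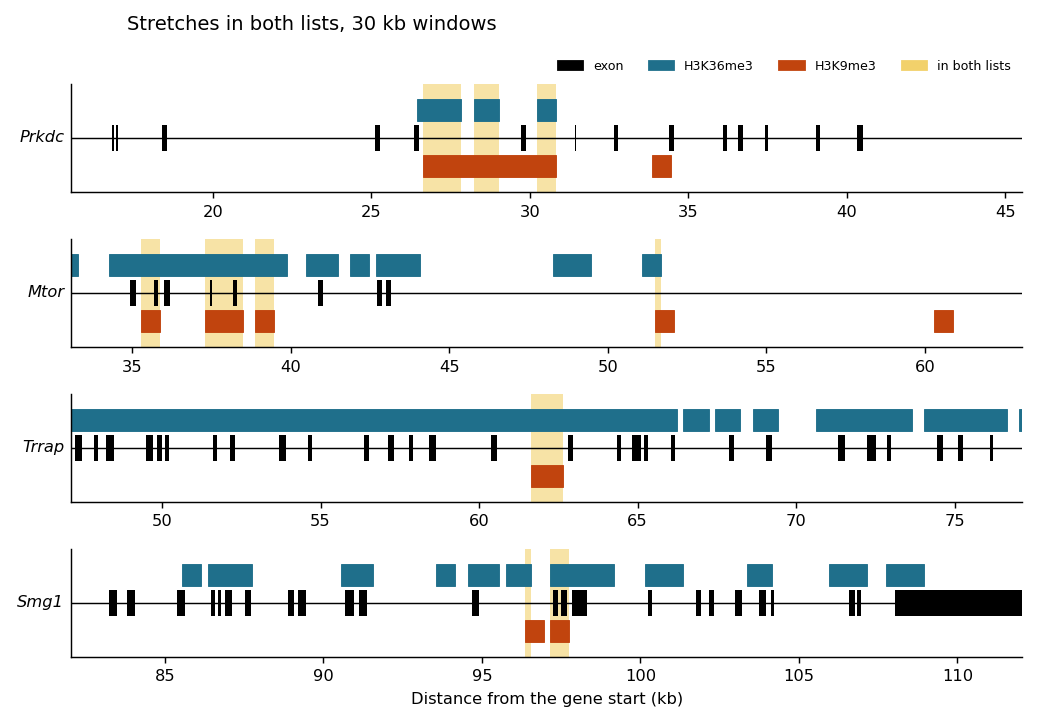
The 4 genes with both marks in 30 kb windows around their H3K9me3 regions, by distance from the gene start in kb, with exons in black, H3K36me3 in blue, H3K9me3 in orange and stretches in both lists shaded yellow. The Trrap region lay wholly within H3K36me3, and in Prkdc 1 wide H3K9me3 region met 3 short H3K36me3 regions.

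The flanks of 5 kb could carry a region only where another gene is annotated, since the lists were restricted to genes. H3K36me3 was listed there over 2842 bp of Mcm4 upstream of Prkdc, 2592 bp of Exosc10 downstream of Mtor and 969 bp of Arl6ip1 downstream of Smg1. Exosc10, an exosome nuclease, had 88.1% of its length in H3K36me3 regions and Arl6ip1, an endoplasmic reticulum shaping protein, 52.2%. H3K9me3 was listed in none of the flanks.

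Genes for known partners of the PIKKs were mostly in the H3K36me3 list. Of 29 genes listed as partners 28 could be matched to the annotation, and 26 had an H3K36me3 region, 8 an H3K9me3 region, 7 both and 5 shared bases. Over all protein-coding genes the shares were 34%, 40.2%, 12.1% and 7.14%. The list was chosen with results of these data known. The median H3K36me3 share of the matched partner genes was 42.5%, against 10.0% for the 6 PIKK genes. Most partner genes are far shorter, however, and no test was made.

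Of the 7 genes of PIKK maturation, whose products load newly made PIKKs onto the HSP90 system, 6 were matched (Tti2 was not), and these 6 had an H3K36me3 region and no H3K9me3 region. Shares were 64.0% in Ruvbl1 and 63.9% in Ruvbl2, the ATPases of the R2TP complex, 60.3% in Telo2, 45.6% in Rpap3, 35.4% in Pih1d1 and 16.7% in Tti1. The partners of TRRAP gave a wide range, with 87.9% in Kat5 and 87.3% in Kat2a, both acetyltransferases, 45.0% in Ep400, a remodelling ATPase, and 1.13% in Kat2b.

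Among mTOR partners, H3K36me3 covered 77.9% of Mlst8, 21.8% of Akt1s1, 16.1% of Rictor, 9.78% of Rptor and 1.91% of Deptor, and none of Mapkap1. H3K9me3 covered 2.82% of Rictor, 2.36% of Rptor, 1.22% of Deptor and 0.55% of Mapkap1. Rptor and Rictor define mTORC1 and mTORC2, and shared bases were found in Rictor (1600 bp) and Deptor (600 bp) but not in Rptor.

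For the DNA damage kinases, the partners of ATR were marked by H3K36me3 although Atr had no region: 83.6% of Topbp1, its activator, 54.1% of Atrip, its obligate partner, and 39.96% of Etaa1, which also had 29.4% in H3K9me3 regions and 1642 shared bp. Of the MRN complex that activates ATM, Mre11a had 49.2% and Rad50 34.9%, and Nbn had no region of either list. The Ku subunits that recruit DNA-PKcs, Xrcc5 and Xrcc6, had 36.02% and 30.5% in H3K36me3 regions, and all of their H3K9me3 bases, 4600 and 600 bp, were in both lists. Dclre1c, the nuclease Artemis, had 6.51%. For SMG1, its target Upf1 had 89.1%, and the complex members Smg8 (annotated as 1200011M11Rik) and Smg9 (1500002O20Rik) 50.9% and 45.8%.

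The labelled cell type was checked with marker genes. All 10 ES cell markers, Pou5f1, Nanog and Sox2 among them, had an H3K36me3 region, with shares from 7.74% (Lin28a) to 72.6% (Sox2). None of 10 matched markers of neural, endodermal, mesodermal and fibroblast cells had one, and all 10 had an H3K9me3 region, from 3.27% of Col1a2 to 100% of Sox17. H3K9me3 was also listed in 2 of the 10 ES cell markers, over 18.3% of Esrrb and 1.57% of Dnmt3b. Over all protein-coding genes, 34% had an H3K36me3 and 40.2% an H3K9me3 region. The check rests on the H3K36me3 list only, and the H3K9me3 regions were not read as a sign of cell type.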

How the data were processed

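Per the study's methods, 50 bp reads of H3K9me3 and H3K36me3 libraries were aligned to mm9 with Bowtie 1.0.0 under a limit on multiple alignments, and duplicates were removed. The authors counted reads in 200 bp bins with SeqMonk, scaled them to library size, matched WT and G34R distributions, kept bins in annotated genes above the 95th percentile of their mark in either cell type, and merged them with BedTools 2.20.1. The deposited lists hold chromosome, start and end; no region was below 600 bp. The methods describe an exclusion of merged regions above a width that is itself under 600 bp, which does not match the lists, so the width filter applied is uncertain. The size of a list depends on the percentile chosen, and reads of strain 129S1/SvImJ were aligned to an assembly of another strain.

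Here positions were read as 1-based, and overlap counted from 1 bp, against NCBIM37 (equal to mm9) and its GENCODE vM1 annotation, with main transcripts taken as those with the longest coding sequence. Interval operations were written in Python 3.11.15 with numpy 2.4.6 and checked on simulated data. The members and lists were chosen with earlier results of these data known. The genes named were the 6 members, the partner list and protein-coding neighbours within 5 kb, of which 1 is not reported here. With 1 library per group no test or p-value was possible. Alternatives covered region width, joining, gene limits, exon overlap, unique bins and leaving out each gene. The printed loop and region sequences come from the NCBIM37 assembly.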

Additional observations from a re-analysis of the deposited data

How the results depend on the processing

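No paired analysis was possible because each group had 1 library. The H3K36me3 share of the 6 genes, 19.7%, was 16.8% with regions of at least 1 kb, 22.5% with neighbouring regions joined and 23.2% as an unweighted mean, and ran from 11.2% (without Trrap) to 27.1% (without Prkdc). The H3K9me3 share, 1.49%, was 0.903% with regions of at least 1 kb, which also took the coding exons touched from 7 to 3 and the shared bases from 7000 to 3400 bp. H3K36me3 bases within 1 kb of an H3K9me3 region came to 14600 bp. The difference of later minus earlier parts for H3K36me3, 0.51 points, was -0.34 within main transcript limits and 5.68 over exons, and ran from -4.36 (without Smg1) to 4.66 (without Mtor), also negative at -0.71 without Trrap. For H3K9me3 it ran from -2.08 (without Smg1) to -0.079 (without Prkdc). Genes with both lists numbered 3 with regions of at least 1 kb. The causes of these shifts were not tested. The count of coding exons touched by H3K36me3, 151, ran from 136 to 150 in its 4 alternatives. The 150 counts merged exons of all transcripts, coding or not. The alternative without repeats marked in the assembly was not run, since the assembly copy used marks none. Depth is unknown, so a mark below the percentile cannot be told from its absence.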
